A study of Mus musculus with 8 samples.

Results

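The transcripts described here encode 9 enzymes of the tricarboxylic acid cycle and of the malate-aspartate shuttle, found by gene symbol among the 48328 Ensembl genes of the deposited table. The cycle enzymes were Cs, Idh2, Idh3a, Ogdh, Fh1 and Mdh2, and the shuttle enzymes were Mdh1, Got1 and Got2, so 6 genes stood on one side and 3 on the other. All 9 are protein-coding nuclear genes and all 9 passed the filter on low values. The RNA came from the lower part of the tibialis anterior, a shin muscle made mostly of fast fibres, of C57BL/6J mice aged 24 months. There were 4 K320E-skm libraries, labelled 1 and 4 male and 2 and 3 female, and 4 wild-type libraries, labelled 1 and 3 male and 2 and 4 female. As known of this line, K320E-skm mice express in skeletal muscle Twinkle with the dominant K320E change, and wild-type mice do not; Twinkle is the mitochondrial DNA helicase. The driver that restricts the mutant protein to muscle fibres is not given in the sources used here. The piece of muscle was extracted whole, so vessel, connective tissue, nerve and blood cells were included. In such bulk RNA, fewer cells of a type and less RNA per cell cannot be told apart.

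The tricarboxylic acid cycle burns acetyl groups in the mitochondrial matrix and passes their electrons to NAD and FAD for the respiratory chain. Since the inner membrane does not let NADH through, the malate-aspartate shuttle carries the electrons of cytosolic NADH inwards: cytosolic malate dehydrogenase makes malate, the malate is oxidised again in the matrix, and a pair of aspartate aminotransferases return the carbon as aspartate. Mitochondrial malate dehydrogenase, Mdh2, serves both routes, and is counted here with the cycle. In muscle the enzymes of the cycle are richest in oxidative fibres.

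Mdh1 and Mdh2, and Got1 and Got2, are cytosolic and mitochondrial forms of the same 2 reactions, each encoded by a gene of its own. The 250 bases before the start of these 4 genes are shown because the aminotransferases had the highest genotype differences of the 9 and the malate dehydrogenases are their counterpart on either side of the membrane. The start is that of RefSeq, and the windows of Got2, Mdh1 and Mdh2 lie partly or wholly inside the GENCODE gene model. They are from RefSeq (GRCm38.p6), read 5′ to 3′ on the strand of the gene. Capitals mark TTGCATCA, the reverse complement of TGATGNAA, in Got1 and TGACGTCA in Mdh2.
Got1, chr19:43524606-43524855, minus strand: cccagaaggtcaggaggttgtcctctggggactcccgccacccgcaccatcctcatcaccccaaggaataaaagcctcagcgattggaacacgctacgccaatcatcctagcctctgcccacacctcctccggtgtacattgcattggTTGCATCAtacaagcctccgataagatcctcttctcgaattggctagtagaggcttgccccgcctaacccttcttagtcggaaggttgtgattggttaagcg
Got2, chr8:95888402-95888651, minus strand: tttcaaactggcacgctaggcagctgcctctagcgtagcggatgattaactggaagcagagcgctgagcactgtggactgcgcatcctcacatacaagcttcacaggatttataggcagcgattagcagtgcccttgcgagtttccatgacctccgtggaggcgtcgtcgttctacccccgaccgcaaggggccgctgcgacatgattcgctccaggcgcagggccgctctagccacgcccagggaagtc
Mdh1, chr11:21571935-21572184, minus strand: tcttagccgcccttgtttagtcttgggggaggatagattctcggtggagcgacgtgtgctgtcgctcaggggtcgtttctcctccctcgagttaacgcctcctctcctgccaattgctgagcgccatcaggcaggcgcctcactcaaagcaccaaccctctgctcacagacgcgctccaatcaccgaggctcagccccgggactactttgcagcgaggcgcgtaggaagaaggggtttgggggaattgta
Mdh2, chr5:135778399-135778648, plus strand: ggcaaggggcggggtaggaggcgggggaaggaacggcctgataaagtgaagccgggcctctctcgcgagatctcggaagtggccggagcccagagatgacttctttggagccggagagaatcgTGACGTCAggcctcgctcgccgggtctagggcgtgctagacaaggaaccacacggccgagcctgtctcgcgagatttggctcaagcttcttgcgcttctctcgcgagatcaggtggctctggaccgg

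RefSeq windows were matched for 8 of the 9 genes, with 6 windows for Ogdh, and 6 motifs were searched in them on both strands. TGATGNAA, the core of the element bound by ATF4 and C/EBP factors, lay in 1 of the 8, that of Got1, where its first base was 102 bases upstream of the start, and in 3.45% of 32841 windows of the same length. TGACGTCA, the cAMP response element, was in the windows of Ogdh and Mdh2 and in 1.55% of all windows. The consensus site of NRF1, TCAAGGTCA, a site of the estrogen-related receptors, and CCGGAAGT, a site of GABP, were in none of the 8, and in 0.783%, 0.387% and 2.88% of all windows. CCAAT was in 6 of the 8, all but Mdh2 and Got2, and in 33.9% of all windows. A gene was counted if any of its windows matched, while the percentages are per window, so the counts and the shares are not alike. The TGACGTCA matches of Ogdh are the same stretch seen in overlapping windows. No match of one motif overlapped a match of another. The motifs were picked with the sequences in view, and a match is a description of letters only.

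FPKM, the fragments mapped to a gene scaled by its transcript length and by the library's total, summed to between 731824 and 858029 per library. No read counts were given, so the depth is unknown, and low values of long genes gave relative depths of 1.00 to 1.31. Twnk, which encodes Twinkle, was at 3.82 to 5.06 FPKM across K320E-skm libraries, against 2.16 to 2.70 FPKM across wild-type libraries. The library labelled male K320E-skm 4 had Xist at 10.2 FPKM and Ddx3y at 0.0117 FPKM, levels like those of the libraries labelled female, so its sex label is contradicted by its transcripts. The 2 ribosomal RNAs of the mitochondrial genome took 41.5 to 46.9% of all FPKM in K320E-skm and 31.2 to 37.5% in wild-type libraries, without overlap. FPKM are relative, and the median gene of 10521 tested had a log2 fold change of −0.14 as deposited and 0.00 after median-ratio rescaling. Differences are therefore also given after rescaling. Fibre transcripts such as Ckm and Tnnt3 stood far above the listed markers of non-muscle cells. Ckm was at 5421 to 6664 FPKM across K320E-skm libraries, against 6560 to 7408 FPKM across wild-type muscle, and Tnnt3 at 6848 to 8307 and 9410 to 10397 FPKM. The sum of 9 muscle fibre markers (10 listed) was 23752 to 30433 FPKM across K320E-skm libraries, against 31138 to 36296 FPKM across wild-type libraries. The sums did not overlap, where 9.92% of single tested genes did not. Not every marker was lower: Myh1 was at 502 to 1539 FPKM across K320E-skm, against 607 to 1189 FPKM across wild-type libraries. Myh2 was at 32.8 to 301 and 83.6 to 194 FPKM. Myh4 was listed at 0 in 4 of the 8 libraries (K320E-skm 2, 3 and 4 and wild-type 4). The heart markers Nppa and Myh6 were at or near 0. Tnnt2, also on the heart list, was at 1.03 to 4.11 FPKM across K320E-skm libraries, against 1.27 to 2.55 FPKM across wild-type libraries. Summed adipocyte markers (6 of 6 detected) were at 114 to 144 FPKM across K320E-skm libraries, against 104 to 262 FPKM across wild-type libraries, and macrophage markers (8 of 8) at 26.6 to 71.8 and 23.2 to 81.9 FPKM. Their part in the results was not tested.

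All 9 enzymes were abundant, with a mean level above that of 94.5 to 98.5% of the tested genes. By mean FPKM over the 8 libraries the order was Mdh1 (283 ± 41.3), Got1 (131 ± 30.0), Mdh2 (118 ± 17.3), Cs (109 ± 14.0), Idh3a (88.5 ± 13.7), Fh1 (76.9 ± 9.61), Ogdh (72.8 ± 9.13), Got2 (70.4 ± 10.9) and Idh2 (59.2 ± 19.2; SD over 8 libraries). Mdh1 stood above Got1 in 8 of 8 libraries, and Cs above Idh3a in 8 of 8. Fh1, Ogdh and Got2 lay within their spread of each other, with Fh1 above Ogdh in 7 of 8 libraries and Ogdh above Got2 in 5 of 8. Got1 was above Mdh2 in 4 of 4 K320E-skm libraries, but in 6 of 8 overall. The cytosolic form was thus the more abundant of each isozyme pair, by 2.51 ± 0.0966 times for Mdh1 over Mdh2 across K320E-skm, against 2.32 ± 0.224 times in wild-type muscle, and by 1.95 ± 0.137 and 1.73 ± 0.151 times for Got1 over Got2 (SD, n = 4 each). Both ratios overlapped between the genotypes.

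**Figure D1:**
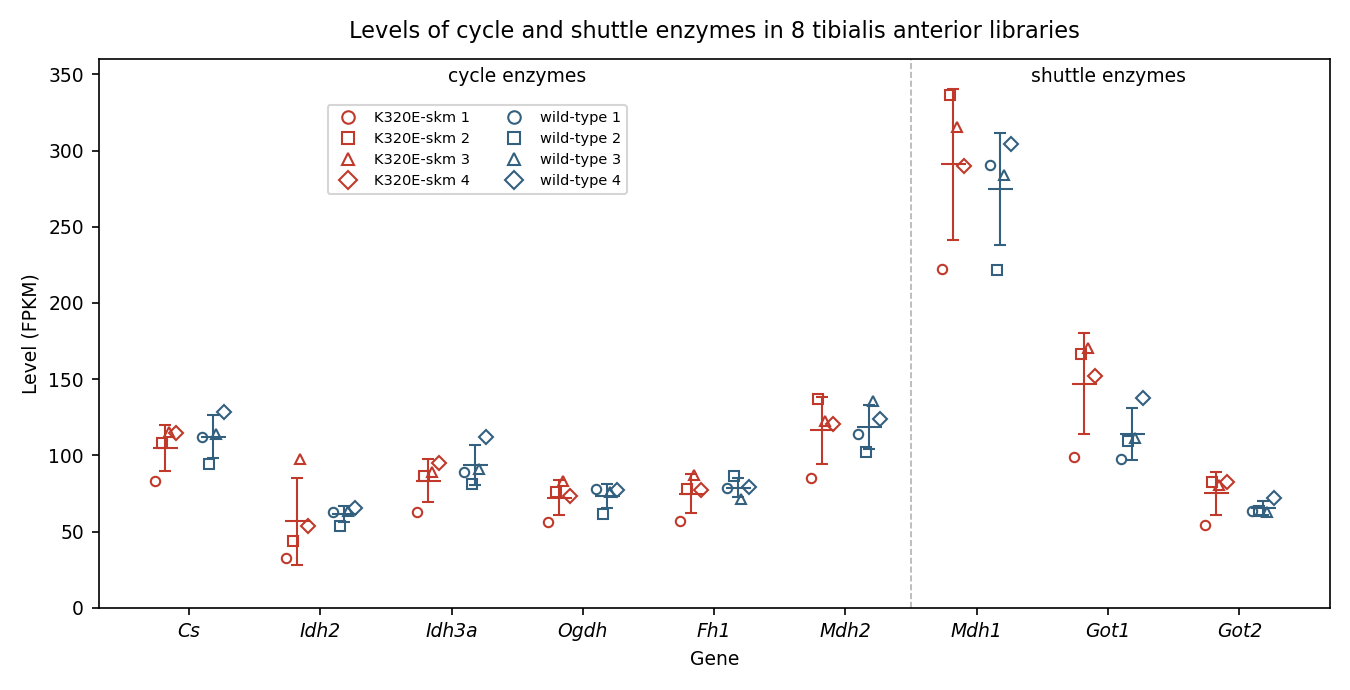
FPKM of the 6 cycle and 3 shuttle enzymes in each library, with K320E-skm in red to the left of wild-type in blue, marker shapes giving the library number and bars the mean ± SD of 4 libraries. Mdh1 lies above all others at 221 to 337 FPKM, and K320E-skm 3 stands apart for Idh2 at 97.6 FPKM.

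The comparison of genotypes asked whether old muscle with mutant Twinkle differs in these enzymes from wild-type muscle. No enzyme rose or fell past the threshold: of 9 members tested, limma called 0 at an adjusted p under 0.05 over all 10521 tested genes, where 0.019% of all genes were called, and 0 had an unadjusted p under 0.05, where 13.1% of all genes did. The 6 cycle enzymes had log2 fold changes between −0.22 and −0.03 with a median of −0.09, and the 3 shuttle enzymes between 0.07 and 0.34 with a median of 0.17, beside −0.14 for all tested genes. After rescaling the medians were 0.09 for the cycle, 0.35 for the shuttle and 0.00 for all genes. The levels of both genotypes overlapped for all 9 members, while 9.92% of tested genes did not overlap. Fold changes are on the scale of log2(FPKM + 1), from limma with a term for the sex label, and adjusted p-values are those of Benjamini and Hochberg.

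Citrate synthase, Cs, which joins acetyl-CoA to oxaloacetate and is a customary measure of mitochondrial content, had 83.0, 108, 115 and 114 FPKM across K320E-skm 1 to 4, against 112, 94.4, 114 and 128 FPKM across wild-type 1 to 4. The lowest value was that of K320E-skm 1 and the highest that of wild-type 4, with the others between them in both genotypes. Its log2 fold change was −0.10 (95% interval −0.46 to 0.27, limma adjusted p = 0.789), and 0.08 after rescaling.

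Idh3a encodes the catalytic subunit of the NAD-dependent isocitrate dehydrogenase, the enzyme of the cycle proper. It had 63.2, 86.2, 89.3 and 95.2 FPKM across K320E-skm 1 to 4, against 89.2, 81.5, 91.0 and 112 FPKM across wild-type 1 to 4. The groups overlapped, again with K320E-skm 1 lowest and wild-type 4 highest, and the log2 fold change was −0.17 (95% interval −0.55 to 0.21, limma adjusted p = 0.651) and 0.01 after rescaling.

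Idh2, the NADP-dependent mitochondrial form, which supplies NADPH in the matrix, was the most variable of the 9, at a coefficient of variation of 32.4% over the 8 libraries, where the others lay between 12.5 and 23.0%. It had 32.4, 43.7, 97.6 and 53.9 FPKM across K320E-skm 1 to 4, against 62.6, 53.7, 63.8 and 65.8 FPKM across wild-type 1 to 4. K320E-skm 3 was above every other library and K320E-skm 1 and 2 below every other, while K320E-skm 4 lay within the wild-type range. The log2 fold change was −0.22 (95% interval −0.85 to 0.40, limma adjusted p = 0.718) and −0.05 after rescaling. As deposited it was −0.53 without K320E-skm 3 (adjusted p = 0.702). It was −0.01 without K320E-skm 1 and −0.07 without K320E-skm 2 (adjusted p = 0.993 and 0.912). K320E-skm 3 also had the highest sum of the 8 slow fibre markers, at 201 FPKM, where the other K320E-skm libraries had 64.0 to 134 and the wild-type libraries 53.3 to 114 FPKM. It had the highest Ldhb as well, the lactate dehydrogenase subunit of oxidative tissue, at 88.3 FPKM against 23.6 to 42.4 in the other K320E-skm and 23.9 to 51.6 FPKM in the wild-type libraries. In other libraries the slow fibre sum and Idh2 went together less closely. Wild-type 3 had the lowest sum, 53.3 FPKM, with Idh2 at 63.8 FPKM, and K320E-skm 4 a sum of 134 with Idh2 at 53.9 FPKM. K320E-skm 1 was low for both, at 64.0 and 32.4 FPKM. The part of fibre type in the level of Idh2 was not tested.

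Ogdh, the first subunit of the 2-oxoglutarate dehydrogenase complex, had 56.1, 75.9, 83.5 and 73.6 FPKM across K320E-skm 1 to 4, against 78.1, 61.7, 75.8 and 77.4 FPKM across wild-type 1 to 4. The wild-type values lay inside the K320E-skm range, and the log2 fold change was −0.03 (95% interval −0.39 to 0.34, limma adjusted p = 0.947) and 0.15 after rescaling. Fumarase, Fh1, which hydrates fumarate to malate, had 56.8, 77.7, 87.3 and 77.5 FPKM across K320E-skm 1 to 4, against 78.9, 86.3, 71.1 and 79.3 FPKM across wild-type 1 to 4. All wild-type values again fell inside the K320E-skm range, with a log2 fold change of −0.09 (95% interval −0.41 to 0.24, limma adjusted p = 0.784) and 0.09 after rescaling.

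Mdh2, which oxidises malate in the matrix for cycle and shuttle alike, had 85.2, 137, 123 and 121 FPKM across K320E-skm 1 to 4, against 114, 102, 136 and 124 FPKM across wild-type 1 to 4. Both the lowest and the highest value were of K320E-skm libraries, and the log2 fold change was −0.04 (95% interval −0.44 to 0.36, limma adjusted p = 0.921) and 0.14 after rescaling. Its cytosolic counterpart Mdh1 had 222, 337, 315 and 290 FPKM across K320E-skm 1 to 4, against 290, 221, 284 and 304 FPKM across wild-type 1 to 4. K320E-skm 2 and 3 were above all wild-type libraries and K320E-skm 1 beside the lowest of them, with a log2 fold change of 0.07 (95% interval −0.33 to 0.48, limma adjusted p = 0.859) and 0.26 after rescaling. Without wild-type 2 the sign of Mdh1 turned, to −0.07 (adjusted p = 0.865).

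Got1, the cytosolic aspartate aminotransferase, had the highest difference of the 9. It had 99.1, 167, 171 and 152 FPKM across K320E-skm 1 to 4, against 97.8, 109, 111 and 138 FPKM across wild-type 1 to 4. K320E-skm 2, 3 and 4 were above all 4 wild-type libraries, and K320E-skm 1 fell among the lowest. The means were 147 ± 33.0 FPKM across K320E-skm libraries, against 114 ± 16.9 FPKM across wild-type muscle (SD, n = 4 each), a log2 fold change of 0.34 (95% interval −0.04 to 0.73, limma adjusted p = 0.411; exact two-sided permutation p = 0.143, where 0.0286 is the smallest that 4 against 4 allows). After rescaling it was 0.52 (95% interval 0.09 to 0.96), the 1 member with an unadjusted p under 0.05, at 0.0236, where 9.85% of all genes had one; its adjusted p was 0.426. The rescaled values overlapped between the genotypes for Got1, as for the other 8, where 5.89% of tested genes did not overlap. The difference was higher than that of 97.5% of tested genes as deposited. It lay between 0.24 and 0.49 with any 1 library left out, with the highest value without K320E-skm 1 (adjusted p = 0.615) and the lowest adjusted p, 0.306, without wild-type 3.

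Got2, the mitochondrial aspartate aminotransferase, returns the carbon of the shuttle on the matrix side. It had 54.1, 82.8, 80.8 and 82.8 FPKM across K320E-skm 1 to 4, against 63.5, 63.4, 63.2 and 72.2 FPKM across wild-type 1 to 4. K320E-skm 2, 3 and 4 were above all wild-type libraries and K320E-skm 1 was below them all, so that the 1 library sets the overlap. The means were 75.1 ± 14.0 FPKM across K320E-skm libraries, against 65.6 ± 4.43 FPKM across wild-type muscle, with a log2 fold change of 0.17 (95% interval −0.18 to 0.53, limma adjusted p = 0.619; exact permutation p = 0.4, n = 4 each). It was 0.35 after rescaling and 0.31 without K320E-skm 1.

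**Figure D2:**
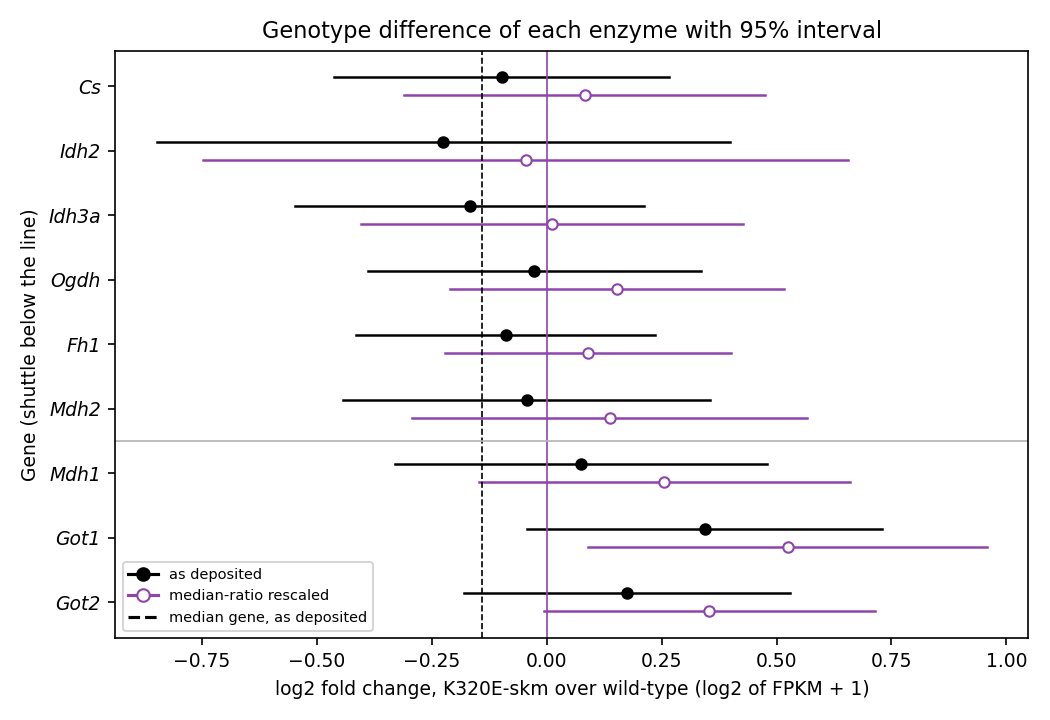
Log2 fold change of K320E-skm over wild-type muscle for each enzyme with its 95% interval, as deposited (black, filled) and after median-ratio rescaling (purple, open), with the median gene as a dashed line at −0.14 as deposited. The 6 cycle enzymes lie between −0.22 and −0.03 as deposited and the 3 shuttle enzymes between 0.07 and 0.34, and all intervals but that of rescaled Got1 include 0.

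The scaling of libraries drops out of a contrast made within a library, so the cycle was set against the shuttle there. The mean log2 level of the 6 cycle enzymes minus that of the 3 shuttle enzymes was −0.81, −0.997, −0.73 and −0.83 in K320E-skm 1 to 4 and −0.48, −0.56, −0.50 and −0.61 in wild-type 1 to 4. All 4 K320E-skm libraries were lower than all 4 wild-type libraries, K320E-skm 1 included. The means were −0.84 ± 0.11 across K320E-skm, against −0.54 ± 0.06 in wild-type muscle (SD, n = 4 each), a difference of −0.31. The mean of the 3 shuttle enzymes thus stood higher against that of the cycle in K320E-skm muscle by 0.31 on the log2 scale. Of the 3, Got1 and Got2 differed most, with log2 fold changes of 0.34 and 0.17, and Mdh1 least, with 0.07. With any 1 library left out the difference was between −0.34 and −0.25. With Mdh2 moved to the shuttle side it was −0.26, and the groups did not overlap, at −1.07 to −0.69 across K320E-skm, against −0.65 to −0.53 in wild-type muscle. No p is given, since the 9 genes and their division were chosen with earlier results of these libraries known. How often contrasts of other gene sets separate the genotypes was not computed, and 9.92% of single tested genes did not overlap. The ranges with a library left out or Mdh2 moved reuse the same values and add no separate support.

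Ratios of FPKM within a library show the contrast for single pairs of genes. They restate the fold changes above, add no separate support, and were chosen after their values were seen. Got1 over Cs was 1.19, 1.54, 1.48 and 1.33 in K320E-skm 1 to 4 and 0.872, 1.16, 0.973 and 1.07 in wild-type 1 to 4. In every K320E-skm library the ratio of Got1 to Cs was thus higher than in any wild-type library, though K320E-skm 1 at 1.19 and wild-type 2 at 1.16 lay close. Got2 over Idh3a was 0.857 to 0.960 across K320E-skm, against 0.643 to 0.777 in wild-type muscle, without overlap. These are 2 of the 6 that did not overlap among all 18 ratios of a shuttle to a cycle enzyme. By gene, 4 of 6 did not overlap for Got1, 2 of 6 for Got2 and 0 of 6 for Mdh1. The 18 ratios reuse the same genes, and no share over ratios of other gene pairs was computed. These counts therefore cannot be called high or low. Mdh1 over Mdh2 was 2.40 to 2.61 across K320E-skm, against 2.09 to 2.55 in wild-type muscle, and overlapped.

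**Figure D3:**
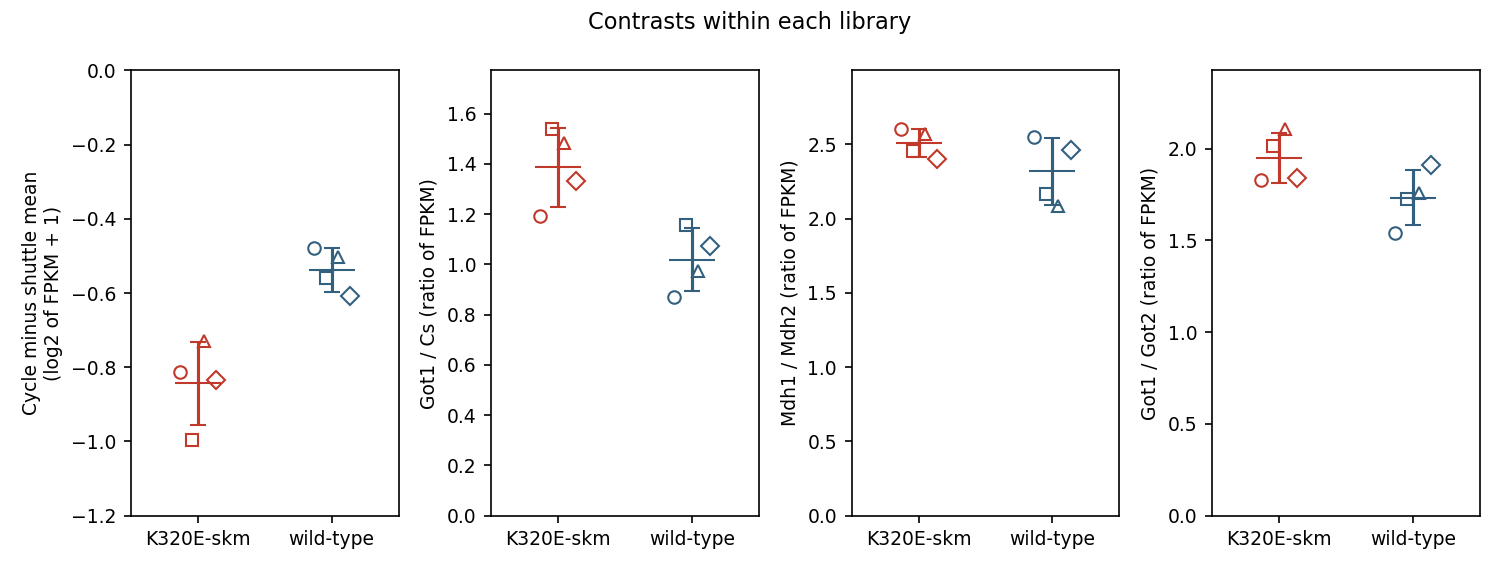
Contrasts within each library, with K320E-skm at the left and wild-type at the right of each panel, marker shapes for libraries 1 to 4 (circle, square, triangle, diamond) and bars for mean ± SD of 4 libraries. The panels give the mean log2 level of cycle minus shuttle enzymes and the FPKM ratios Got1 to Cs, Mdh1 to Mdh2 and Got1 to Got2; the left 2 do not overlap between the genotypes and the right 2 do.

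Among themselves the 9 transcripts moved together from library to library. After rescaling, Pearson's r between members over the 8 libraries had a median of 0.79 over 36 pairs, from 0.50 for Idh2 with Got1 to 0.99 for Got1 with Got2. As deposited the median was 0.66, from 0.38 for Idh2 with Got1 to 0.96 for Cs with Idh3a. These are a description of libraries that share scale and depth, and no r of other gene pairs is given for comparison. After rescaling, K320E-skm 1 and wild-type 1 were below the mean for all 9, and K320E-skm 3, K320E-skm 4 and wild-type 4 were above it for all 9. For wild-type 1 this depended on the rescaling, where its values were divided by the largest factor, 1.28. As deposited, wild-type 1 was above the mean of the 8 libraries for Cs, Idh2, Idh3a, Ogdh, Fh1 and Mdh1. It was below that mean for Mdh2, Got1 and Got2. Summed fibroblast markers (4 of 4 detected) were at 275, 202, 175 and 188 FPKM in libraries 1 to 4 of K320E-skm, against 453, 277, 161 and 177 FPKM in those of wild-type. These sums, which were not rescaled, were highest in wild-type 1, wild-type 2 and K320E-skm 1, the 3 libraries with the lowest mean rescaled enzyme profile. Most of each sum came from Dcn, which made up 242 of 275 FPKM for K320E-skm 1 and 370 of 453 for wild-type 1. Wild-type 1 was highest for all 4 markers. K320E-skm 1, however, had the lowest Col1a1 of its genotype, at 3.78 FPKM. Its Col3a1, at 23.1 FPKM, was below the 31.5 and 35.2 FPKM of K320E-skm 3 and 4. Summed macrophage markers were highest in wild-type 1, at 81.9 FPKM, and K320E-skm 1, at 71.8 FPKM. K320E-skm 2 came next at 68.9 FPKM, though its mean rescaled enzyme profile was above average. K320E-skm 3, with the highest mean profile, had 54.0 FPKM, close to the 54.9 FPKM of wild-type 2. The part of these cells in the shared movement was not tested. Got1 spanned the widest range after Idh2, from 0.73 below its mean on the log2 scale in wild-type 1 to 0.56 above it in K320E-skm 3. Myoglobin, Mb, the oxygen store of oxidative fibres, was lowest in K320E-skm 1 at 725 FPKM, where the other libraries had 1582 to 2521 FPKM across K320E-skm libraries, against 1549 to 2211 FPKM across wild-type muscle. Myh2, the myosin of fast oxidative fibres, had 32.8, 111, 269 and 301 FPKM across K320E-skm 1 to 4, against 110, 89.3, 83.6 and 194 FPKM across wild-type 1 to 4. Its part in the level of the enzymes was not tested.

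**Figure D4:**
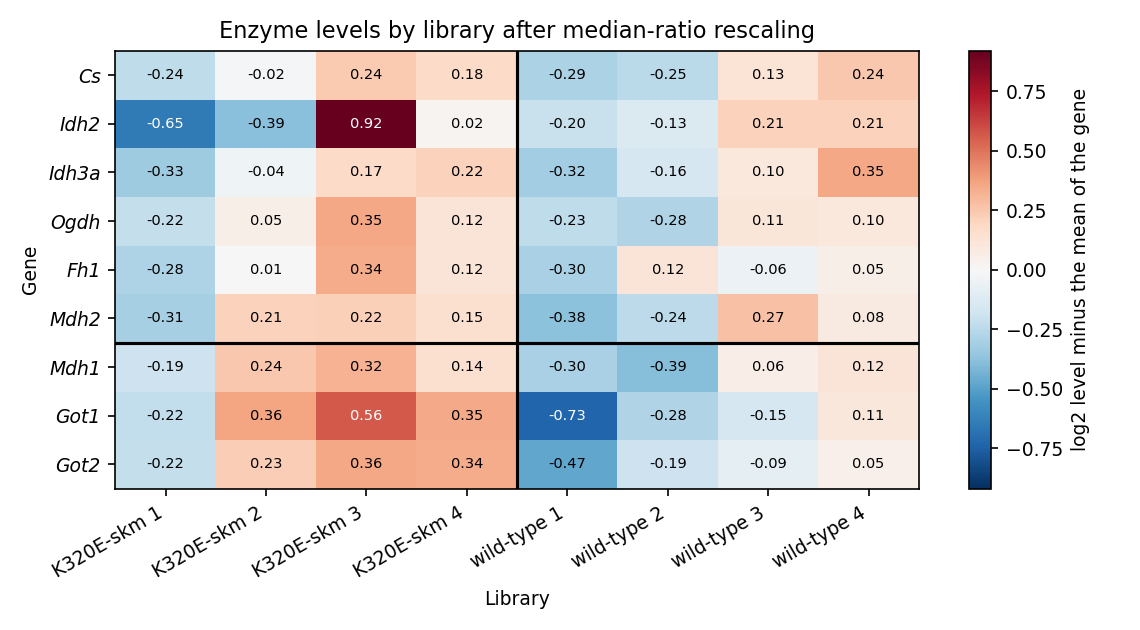
Log2 level of each enzyme after median-ratio rescaling, minus its own mean over the 8 libraries, with K320E-skm to the left and wild-type to the right of the vertical line, cycle above and shuttle below the horizontal line. Columns K320E-skm 1 and wild-type 1 are below the mean for all 9 genes, and K320E-skm 3, K320E-skm 4 and wild-type 4 are above it for all 9, with the highest deviation, 0.92, for Idh2 in K320E-skm 3.

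The genes most like the members, by Pearson's r over the 8 libraries with their mean rescaled profile among 9591 other protein-coding genes, were Dlst (0.98), the second subunit of the 2-oxoglutarate dehydrogenase complex, D10Jhu81e (0.98), Sdhb (0.97), the iron-sulphur subunit of succinate dehydrogenase, Coq5 (0.97), a methyltransferase of coenzyme Q synthesis, and Amacr (0.97), a racemase of branched acyl-CoA. Their log2 fold changes as deposited were between −0.10 and 0.09.

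Other enzymes around the cycle and shuttle were taken from 5 lists with 47 genes, of which 41 were tested. Limma called 0 of the 41 at an adjusted p under 0.05, where 0.019% of all tested genes were called, and 6 had an unadjusted p under 0.05, 1 higher and 5 lower, beside 13.1% of all tested genes, 118 higher and 1265 lower. The genotypes did not overlap for 3 of the 41, Sucla2, Pdk2 and Gpd2, all lower in K320E-skm muscle, beside 9.92% of all genes. The median log2 fold change of the 41 was −0.09, and 0.09 after rescaling, which gave 2 higher and 2 lower at an unadjusted p under 0.05, beside 9.85% of all tested genes.

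The other cycle enzymes (12 of 13 tested, median −0.05) lay near the 6 members. The log2 fold changes were 0.05 for Sdhb and −0.03 for Idh3b, a regulatory subunit of the NAD-dependent isocitrate dehydrogenase, and 0.23 and 0.16 after rescaling. Sucla2, the ATP-forming subunit of succinate-CoA ligase, had 114, 133, 129 and 124 FPKM across K320E-skm 1 to 4, against 135, 134, 138 and 151 FPKM across wild-type 1 to 4. All K320E-skm libraries were below all wild-type libraries (log2 fold change −0.16, limma adjusted p = 0.575; exact permutation p = 0.0286), and after rescaling the difference was 0.02. Dld, the dihydrolipoamide dehydrogenase shared by several complexes, was at −0.21, and at −0.03 after rescaling. Of the carriers that complete the malate-aspartate shuttle, the 2-oxoglutarate carrier Slc25a11 was at 0.11 (0.29 after rescaling) and the aspartate-glutamate carrier Slc25a12 at −0.07 (0.11 after rescaling), while the related Slc25a13 was below the filter, at 0.113 to 0.346 FPKM across K320E-skm libraries, against 0.170 to 0.309 FPKM across wild-type muscle.

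At the entry of pyruvate (13 of 14 tested, median −0.06), the carrier subunits Mpc1 and Mpc2 were at −0.16 and −0.13 and the dehydrogenase subunit Pdha1 at 0.10. After rescaling they were at 0.02, 0.05 and 0.28. Of the enzymes that switch pyruvate dehydrogenase off and on, Pdk4 and Pdp1 had the smallest p, and neither passed. Pdk4, a kinase that turns the complex off, had 49.4, 128, 162 and 90.2 FPKM across K320E-skm 1 to 4, against 30.1, 92.4, 42.2 and 68.1 FPKM across wild-type 1 to 4, overlapping between the genotypes (log2 fold change 0.87, limma adjusted p = 0.309; 1.05 after rescaling). Pdp1, a phosphatase that turns it on, had 21.4, 13.7, 15.5 and 19.7 FPKM across K320E-skm 1 to 4, against 40.8, 20.6, 24.6 and 27.5 FPKM across wild-type 1 to 4, with 1 K320E-skm library above the lowest wild-type value (log2 fold change −0.64, limma adjusted p = 0.31; −0.46 after rescaling). Pdk2, another of these kinases, was at 39.8 to 48.6 FPKM across K320E-skm libraries, against 49.7 to 60.8 FPKM across wild-type libraries (log2 fold change −0.31, limma adjusted p = 0.368; −0.13 after rescaling).

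Among side routes (10 of 13 tested, median −0.13), malic enzyme Me1, which turns malate into pyruvate in the cytosol, had 13.3, 12.7, 10.3 and 11.4 FPKM across K320E-skm 1 to 4, against 23.1, 13.3, 17.9 and 21.2 FPKM across wild-type 1 to 4. K320E-skm 1 and wild-type 2 met and the other libraries stood apart (log2 fold change −0.60, limma adjusted p = 0.31; −0.43 after rescaling). The mitochondrial Me3 was at −0.17, glutamate dehydrogenase Glud1 at −0.18 and cytosolic aconitase Aco1 at −0.16. These lie near the −0.14 of the median gene, and after rescaling they were 0.01, −0.0046 and −0.02.

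The glycerol phosphate shuttle is the other route for electrons of cytosolic NADH, and is prominent in fast fibres. Gpd1, the cytosolic dehydrogenase, had 82.6, 64.0, 62.3 and 74.5 FPKM across K320E-skm 1 to 4, against 115, 78.2, 89.2 and 106 FPKM across wild-type 1 to 4 (log2 fold change −0.44, limma adjusted p = 0.337; −0.26 after rescaling). Gpd2, the mitochondrial dehydrogenase, was at 20.3 to 28.3 FPKM across K320E-skm libraries, against 28.8 to 34.7 FPKM across wild-type libraries (log2 fold change −0.40, limma adjusted p = 0.337; −0.23 after rescaling). All K320E-skm libraries were below all wild-type libraries for Gpd2, with K320E-skm 2 at 28.3 next to the lowest wild-type value, and 1 K320E-skm library overlapped for Gpd1. The lactate dehydrogenase subunit Ldha, the most abundant of this list, was at −0.19 and at −0.0066 after rescaling, and Ldhb at 0.19 and 0.37 after rescaling, with the high value of K320E-skm 3 described above.

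Whether the genotype difference varied with the sex label was tested with an interaction term. Limma called 0 of the 9 members, with 0.019% of all genes called, and 0 had an unadjusted p under 0.05, beside 2.27% of all genes. The difference of the log2 fold change, male minus female label, was −0.72 for Idh2 and between −0.50 and −0.09 for the other 8. K320E-skm 4 entered this test as a male, though its Xist and Ddx3y were like those of the libraries labelled female. The interaction therefore compares labels, and cannot be read as a difference between the sexes. The main fit used the same labels, and no fit with the label of K320E-skm 4 changed was run. Without K320E-skm 4 the log2 fold changes of Got1 and Got2 were 0.24 and 0.07.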

How the data were processed

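The authors deposited 1 table of FPKM, with 48328 genes in rows and 8 libraries in columns, all 8 matched to the labels by name. It was made with TopHat2 2.0.10, Cufflinks 2.1.1 and CASAVA on mm10, per the submitters' processing notes. A stranded library kit was used, per the labels' protocols. No source used here states the annotation, the strand setting of the counting or how ribosomal RNA was treated. GENCODE M21 (GRCm38) gave symbols and positions for 47864 of the IDs.

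Genes at 1 FPKM or more in 4 or more libraries were kept, which left 10521. Their log2(FPKM + 1) entered limma 3.58.1 (R 4.3.3) with genotype and sex label as terms and a trended variance, leaving 5 residual degrees of freedom, and two-sided p-values were adjusted by Benjamini and Hochberg over all kept genes at a threshold of 0.05. The pseudocount of 1 understates the change of low genes. Exact two-sided permutation over 70 assignments was run for single genes. The samples are labelled as separate but their origin is not stated, so p-values measure only the spread between these samples. The fit was tested on simulated data before use.

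The members, the lists and the division into cycle and shuttle were chosen with earlier results of these data known. The text names all 9 members, the 3 most abundant genes and the 2 with the smallest p of each list, and the 5 genes most like the members, except for some results that are not reported here. Pdk2 was named after its values were seen, and the sex-check, marker and ratio values and Twnk also stand outside that rule. Alternatives were a pseudocount of 0.1, the low-value filter dropped or set at 5 FPKM, median-ratio or quantile scaling, the sex term dropped, the replicate number as a block, robust variance, array weights and each library left out. Rescaling without a sex term was added after seeing the data. Promoter windows came from RefSeq (GRCm38.p6). Python 3.11.15 was used with pandas 2.3.3, scipy 1.17.1 and matplotlib 3.10.9.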

Additional observations from a re-analysis of the deposited data

Results flagged for a closer look

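Within the 4 libraries of a genotype, 18 sets of values were checked for a library far from the other 3, where chance flags about 1 in 20 groups, and 3 stood out. Ogdh was lowest in wild-type 2, at 61.7 FPKM, where the other wild-type libraries had 75.8 to 78.1 FPKM. Got2 was lowest in K320E-skm 1, at 54.1 FPKM, where the other K320E-skm libraries had 80.8 to 82.8 FPKM. Got2 was also highest in wild-type 4, at 72.2 FPKM, where the other wild-type libraries had 63.2 to 63.5 FPKM. K320E-skm 1 had the lowest value of its genotype for all 9 enzymes.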

How the results depend on the processing

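No member passed the threshold under any of the 19 alternatives, where the lowest adjusted p of a member was 0.306, for Got1 without wild-type 3. Got1 and Got2 were higher in K320E-skm muscle under all 19 alternatives, at 0.24 to 0.52 and 0.07 to 0.35, and Idh2 was lower, at −0.53 to −0.01. The cycle enzymes other than Idh2 changed sign with the scaling, so no direction is given for them. After median-ratio rescaling, with or without the sex term, the values were 0.083 for Cs, 0.012 for Idh3a, 0.15 for Ogdh, 0.090 for Fh1, 0.14 for Mdh2, and after quantile normalization 0.072 for Ogdh, 0.045 for Mdh2. With each library left out in turn, the ranges were −0.21 to 0.017 for Cs, −0.14 to 0.096 for Ogdh, −0.16 to 0.016 for Fh1, −0.15 to 0.11 for Mdh2 and −0.067 to 0.20 for Mdh1, with the positive values of the first 4 highest without K320E-skm 1. In the same fits the medians ranged from −0.18 to 0.02 for the cycle and from 0.07 to 0.31 for the shuttle, and after median-ratio rescaling they were 0.087 and 0.35. Over all genes, 2 were called as reported, 1 with no filter or a filter of 5 FPKM, 5 with array weights and 2 to 3 with each library left out. The replicate number as a block with the sex term kept called 146 genes and 1 gene of the pathway lists, Pdk4 (0.87, limma adjusted p = 0.017), and the block in place of the sex term called 2. Same-numbered libraries correlated at 0.16, 0.02, 0.04 and 0.04 in their deviations, and 3 of 4 K320E-skm libraries correlated best with their own number. Only 1 of the 4 was over 0.1, so the numbers were not taken to pair the samples. The cause of these changes was not tested. The depth is unknown. The 95% interval of Cs as deposited spans −0.46 to 0.27.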
